A study of Mus musculus with 24 samples.

Results

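The genes described here are 37 glycolysis and hypoxia response genes from a list of symbols, found in the raw count table through Ensembl identifiers paired with GENCODE M21 symbols. All 37 were present among the 43629 genes of the table, and 33 of them were among the 10578 genes with enough counts to be tested. They comprise 18 glycolytic enzymes, 7 regulators of pyruvate and fructose flux, 5 genes of oxygen sensing and 7 further targets of the hypoxia response. The cells were a mouse leukaemia line driven by the MLL-AF9 oncogene, with Cas9, given guide RNAs by lentivirus (multiplicity of infection 0.3), selected with puromycin at 2 ug/ml for 72 h from 48 h after infection, and harvested for RNA on day 9. All groups share this background: 3 libraries received a non-targeting guide (NT), 3 a guide against DOT1L, and 3 each of 2 guides (G1 and G2) against MLLT10, against MLLT1 (ENL) and against MLLT6 (AF17). DOT1L is a histone methyltransferase and the other proteins are its partners. The labels name a single guide for DOT1L and for NT, describe the cells as 1 line, and do not say whether replicates were separate cultures. The p-values therefore reflect library-to-library spread that may be technical. The labels name no change of oxygen for any group.

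Glycolysis splits glucose into pyruvate, which lactate dehydrogenase can reduce to lactate or the pyruvate dehydrogenase complex can feed to mitochondria. The transcription factor subunit encoded by Hif1a is made continuously and, while oxygen is present, is hydroxylated by the Egln enzymes, bound by the Vhl ubiquitin ligase and degraded. When oxygen falls it escapes, binds the core sequences ACGTG or GCGTG, and induces most glycolytic enzymes together with genes that limit mitochondrial respiration, among them Pdk1 and Bnip3, and feedback genes such as Egln3.

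The promoters of 4 members are shown because these were the genes with the smallest adjusted p in the comparison of the DOT1L knockout with NT among those holding such a core. Sequences are from RefSeq on GRCm38.p6, 250 bases before to 50 after each gene's annotated start, written 5′ to 3′ on the gene's own strand, with matches in capitals.
Egln3, chr12:54203825-54204124, minus strand: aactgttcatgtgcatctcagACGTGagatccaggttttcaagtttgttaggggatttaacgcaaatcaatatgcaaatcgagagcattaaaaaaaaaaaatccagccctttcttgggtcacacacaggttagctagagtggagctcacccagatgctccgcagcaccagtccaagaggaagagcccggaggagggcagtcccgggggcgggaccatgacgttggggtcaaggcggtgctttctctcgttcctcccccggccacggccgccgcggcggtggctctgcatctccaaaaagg
Pfkfb4, chr9:108991652-108991951, plus strand: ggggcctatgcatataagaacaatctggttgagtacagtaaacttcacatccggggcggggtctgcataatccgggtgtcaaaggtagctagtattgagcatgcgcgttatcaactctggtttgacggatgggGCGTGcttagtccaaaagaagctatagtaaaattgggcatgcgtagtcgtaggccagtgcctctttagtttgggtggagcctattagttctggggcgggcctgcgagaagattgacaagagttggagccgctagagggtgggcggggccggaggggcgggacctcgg
Pdk1, chr2:71872974-71873273, plus strand: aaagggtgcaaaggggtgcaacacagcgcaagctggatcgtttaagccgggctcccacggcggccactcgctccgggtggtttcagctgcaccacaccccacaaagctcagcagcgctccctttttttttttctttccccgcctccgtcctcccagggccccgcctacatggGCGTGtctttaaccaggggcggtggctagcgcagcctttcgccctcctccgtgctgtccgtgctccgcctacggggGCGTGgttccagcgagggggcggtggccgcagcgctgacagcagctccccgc
Pfkm, chr15:98092339-98092638, plus strand: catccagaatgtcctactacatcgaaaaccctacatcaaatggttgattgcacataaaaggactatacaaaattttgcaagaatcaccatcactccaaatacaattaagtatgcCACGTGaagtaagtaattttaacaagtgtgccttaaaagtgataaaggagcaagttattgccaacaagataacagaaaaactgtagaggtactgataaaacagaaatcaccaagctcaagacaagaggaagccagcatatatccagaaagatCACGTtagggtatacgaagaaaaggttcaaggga
Egln3 and Pfkfb4 held 1 core each, Pdk1 held 2 GCGTG cores, and Pfkm held 3 ACGTG matches, of which a pair overlap as the palindrome CACGTG.

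The library totals ran from 2403044 to 7415397 counts. Levels are given as CPM, each count scaled to a fixed library total adjusted by the trimmed mean of M values, and a gene is said to have risen or fallen where the adjusted p of edgeR's quasi-likelihood test was under 0.05. Dot1l was at 41.6 to 49.0 CPM in the DOT1L knockout against 69.7 to 75.1 in NT, Mllt10 at 7.98 to 12.1 in its knockout against 14.7 to 19.1, and Mllt6 at 14.9 to 23.3 in its knockout against 30.1 to 42.2; of these differences the first passed the test (adjusted p = 0.000265), the others not (0.144 and 0.599). Mllt1 was not lower in its own group, at 34.95 to 69.3 CPM against 21.8 to 41.2 in NT, so those libraries are called MLLT1-labelled here. Counts of mRNA do not show whether a protein was lost, and this was not tested for any target. Replicate 1 of MLLT1 G1 and replicate 3 of MLLT6 G1 lay farthest from the other libraries of their groups, with root mean square log2 differences of 0.67 and 0.60 over the tested genes. Of 8 leukaemia and myeloid progenitor genes, 3 were lower in the DOT1L knockout (Hoxa9, Hoxa10 and Meis1) and 3 higher (Itgam, Mpo and Csf1r), with a summed level of 1122 to 1160 CPM in NT and 2908 to 3166 in the knockout. Markers of neutrophil maturation moved with the DOT1L knockout: 12 of 12 were higher than in NT, and their summed level was 93587 to 107750 CPM against 288.1 to 392.8. Of 7 tested monocyte and macrophage markers 3 were higher and 2 lower (Adgre1 and Ccr2). Of the erythroid, fibroblast and endothelial lists 1 gene each was tested and differed. The globin gene Hbb-bt was lower by 5.13 on the log2 scale and the endothelial gene Pecam1 by 1.15. The collagen gene Col1a1 was higher by 5.07, from a fibroblast list that summed to at most 1.25 CPM in NT. The other 3 fibroblast genes were at 0 in the DOT1L knockout. Of 5 T cell genes, 4 were at 0 in both groups, Cd3e among them. The other, Cd3d, was at 1.07 to 2.23 CPM in the DOT1L knockout and at 0 to 2.06 in NT. The neutrophil markers were also higher than in NT for 8 of 12 in the MLLT1-labelled libraries and 4 of 12 in the MLLT10 knockout. The part of these marker changes in the results on the listed genes was not tested, and in bulk RNA fewer cells of a type and less RNA per cell cannot be told apart.

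In the DOT1L knockout, 12 of the 33 tested members changed against NT: 11 fell and 1, Pfkfb4, rose. Of all genes tested in this comparison 21.7% changed, 10.6% lower and 11.1% higher. The median log2 fold change of the members was −0.46, beside 0.0067 over all genes. The changed members included each isoform of phosphofructokinase, the pyruvate dehydrogenase kinase Pdk1, the oxygen-regulated transcription factor subunit, and the prolyl hydroxylase with the most counts per kilobase.

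**Figure D1:**
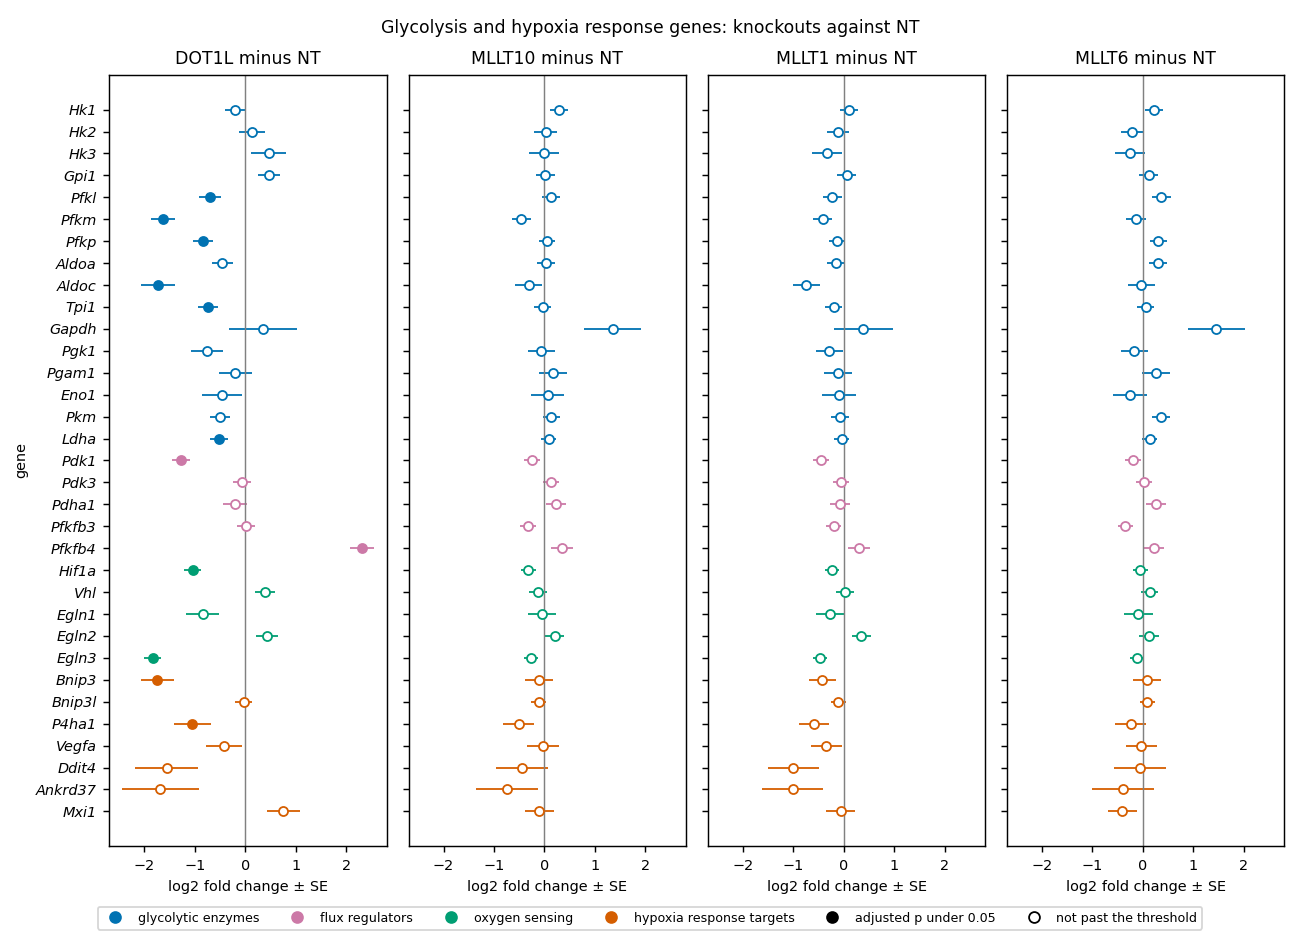
Log2 fold change with its standard error (x axis) of the 33 tested genes (y axis, coloured by role) in the DOT1L, MLLT10, MLLT1-labelled and MLLT6 groups against NT, from edgeR. Filled points have an adjusted p under 0.05: 12 of 33 in the DOT1L panel, with Pfkfb4 at 2.32 standing alone to the right, and 0 in the other panels.

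Among the glycolytic enzymes, 6 of 16 tested genes fell in the DOT1L knockout and none rose, with a median log2 fold change of −0.48. Phosphofructokinase, which commits sugar to glycolysis, has 3 isoform genes, and all 3 fell. Pfkm, the muscle-type isoform (ENSMUSG00000033065, chromosome 15, 98092589 to 98132451, plus strand), was at 27.6, 25.02 and 41.2 CPM in NT replicates 1 to 3 and at 13.0, 10.3 and 7.66 in the DOT1L knockout. It fell by 1.62 on the log2 scale (SE 0.24, adjusted p = 1.57e-05), and the 21 other libraries, at 17.5 to 41.2, all lay above the 3 knockout libraries. Pfkp, the platelet-type isoform, was at 398.6, 517.0 and 398.5 CPM in NT and at 169.1, 314.2 and 250.9 in the knockout, a fall of 0.84 (SE 0.19, adjusted p = 0.00206). Its last 500 annotated bases are shared with another annotated gene at every 50-base position, so its count depends on how such reads were assigned. Pfkl, the liver-type isoform, was at 499.6, 452.3 and 358.1 CPM in NT and at 173.5, 292.2 and 338.9 in the knockout. Its fall of 0.70 (SE 0.21, adjusted p = 0.0186) was the least secure of the 3, with the highest knockout library close to the lowest NT library and an adjusted p of 0.121 without the first DOT1L library, 0.0678 without the first NT library and 0.0541 without the second.

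Aldoc, the minor aldolase of these cells, was at 40.8, 85.4 and 62.6 CPM in NT and at 7.80, 24.5 and 23.7 in the DOT1L knockout. It fell by 1.73 (SE 0.33, adjusted p = 0.000414), a 3.32-fold difference. The MLLT1-labelled libraries reached down to 24.3 CPM and so overlapped the knockout. Aldoa, the main aldolase and the enzyme with the most counts per kilobase here, was at 2007, 2789.9 and 1951.5 CPM in NT and at 1237, 1908 and 1774 in the knockout. Its groups did not overlap, but its log2 fold change of −0.46 (SE 0.21) had an adjusted p of 0.125.

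Tpi1, which interconverts the triose phosphates, was at 385.0, 528.0 and 434.7 CPM in NT and at 198.0, 306.4 and 297.9 in the knockout, a fall of 0.75 (SE 0.20, adjusted p = 0.00685). Ldha, the lactate dehydrogenase subunit of glycolytic cells, was at 1886, 2000.2 and 2027 CPM in NT and at 1060.1, 1679 and 1385 in the knockout, a fall of 0.52 (SE 0.17, adjusted p = 0.0291). Neither gene's knockout libraries reached the NT range. Without the first DOT1L library the adjusted p was 0.0527 for Tpi1 and 0.165 for Ldha. The call for Ldha was also lost without NT replicate 2, NT replicate 3 or DOT1L replicate 3, at 0.0688, 0.0809 and 0.0770. Pkm, the pyruvate kinase gene, and Pgk1, phosphoglycerate kinase, stopped short of the threshold, with log2 fold changes of −0.50 (adjusted p = 0.0707) and −0.76 (adjusted p = 0.088). The remaining enzymes ran from −0.46 for Eno1 to 0.48 for Gpi1, glucose phosphate isomerase, and none passed the test. Gpi1 was at 1369 to 1554 CPM in the knockout against 881 to 1259 in NT, so its libraries lay above NT where most enzymes lay below it (adjusted p = 0.126).

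**Figure D2:**
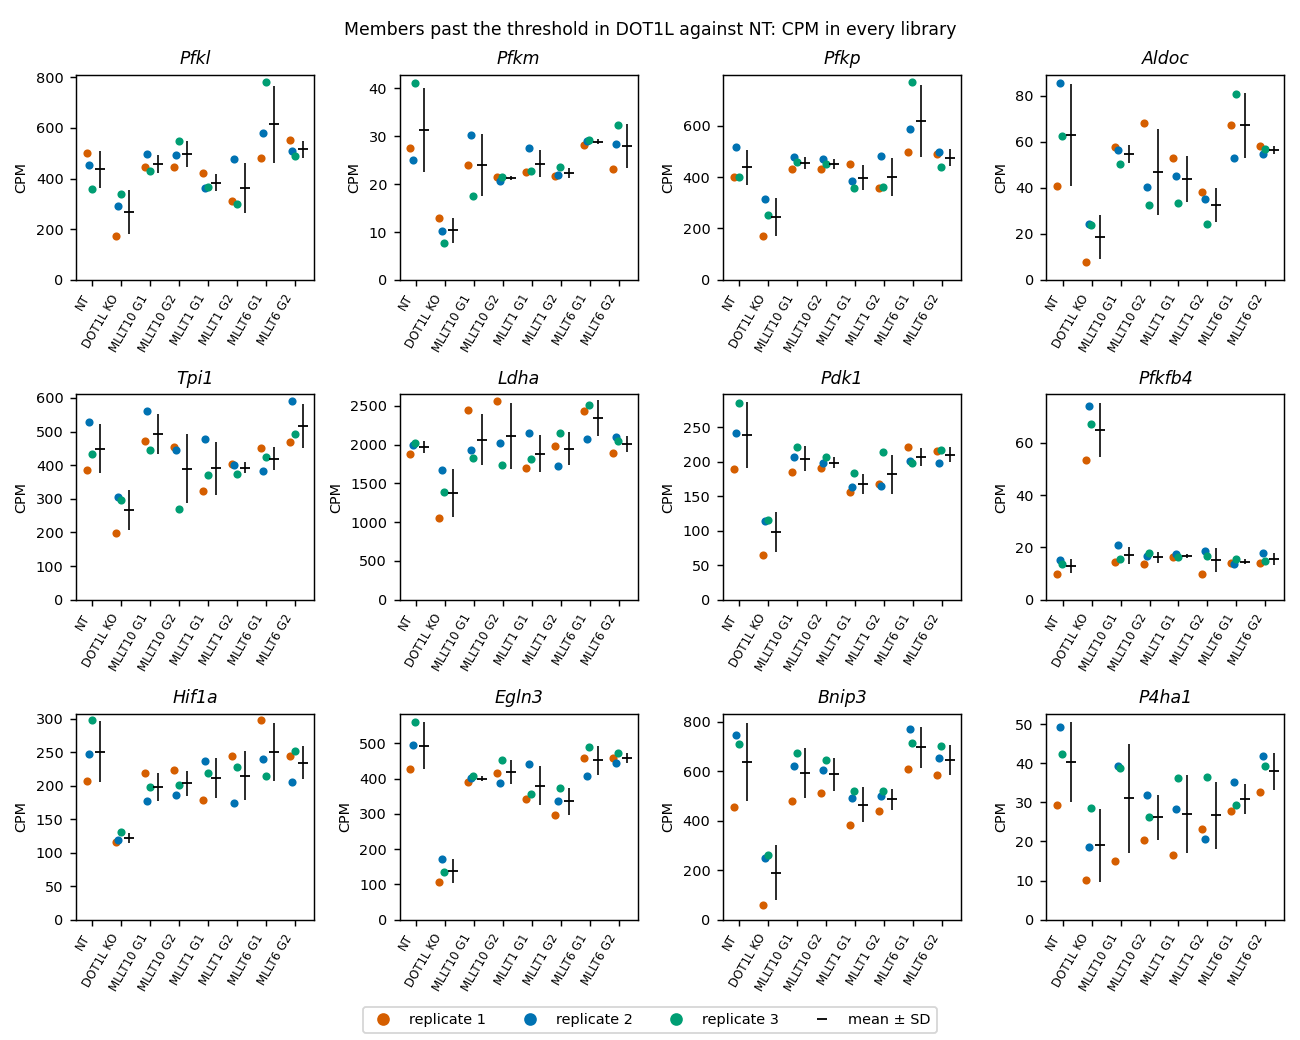
CPM (y axis, linear from 0) in each of the 24 libraries by group (x axis) for the 12 genes that changed in the DOT1L knockout against NT. Points are libraries coloured by replicate number, dashes with bars are the mean and SD of 3 libraries; Pfkfb4 is at 53.5 to 73.9 in the DOT1L knockout and at 9.89 to 20.8 elsewhere.

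The flux regulators split. Pfkfb4 encodes an enzyme in the turnover of fructose 2,6-bisphosphate, the allosteric activator of phosphofructokinase, whose level was not tested. Pfkfb4 was at 9.89, 15.3 and 13.6 CPM in NT and at 53.5, 73.9 and 67.2 in the DOT1L knockout. It rose by 2.32 (SE 0.24, adjusted p = 5.76e-08), a 4.98-fold difference, and the other 21 libraries stopped at 20.8 CPM. Its paralog Pfkfb3 was at 196 to 214 CPM in the knockout and 181 to 215 in NT, with a log2 fold change of 0.01 (SE 0.18, adjusted p = 0.976). Pdk1 phosphorylates and inhibits pyruvate dehydrogenase, and was at 189.6, 241.8 and 285.0 CPM in NT and at 64.3, 114.5 and 116.0 in the knockout. It fell by 1.28 (SE 0.18, adjusted p = 1.14e-05), while the other 21 libraries stayed between 156.7 and 285.0. Pdk3, the second kinase expressed here and the flux regulator with the most counts per kilobase, was at 133.6, 120.1 and 150.5 CPM in NT and at 120.0, 144.3 and 122.8 in the knockout, with overlapping groups and a log2 fold change of −0.06 (SE 0.18). Pdha1, the catalytic subunit those kinases act on, had a log2 fold change of −0.20 (SE 0.23, adjusted p = 0.602).

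Oxygen sensing genes showed the member with the smallest adjusted p. Egln3 (ENSMUSG00000035105, chromosome 12, 54178981 to 54203860, minus strand) was at 426.2, 494.2 and 559.5 CPM in NT and at 106.3, 172.8 and 135.1 in the DOT1L knockout. It fell by 1.84 (SE 0.16, adjusted p = 6.06e-09), a 3.57-fold difference, with no overlap with any other group. Hif1a itself was at 207.7, 248.0 and 297.8 CPM in NT and at 116.3, 119.4 and 130.4 in the knockout, and fell by 1.04 (SE 0.17, adjusted p = 6.11e-05). The hydroxylase Egln1 was at 125.7, 169.2 and 214.2 CPM in NT and at 53.9, 110.9 and 117.3 in the knockout, with a log2 fold change of −0.85 (SE 0.33) and an adjusted p of 0.0689. It passed the threshold under 6 of 13 alternatives, a replicate block among them. Egln2 had a log2 fold change of 0.43 (adjusted p = 0.181) and Vhl one of 0.39 (adjusted p = 0.176), so within this group of 5 genes the values pointed both ways.

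Of the 7 further hypoxia targets, 2 fell in the DOT1L knockout (28.6%, where 21.7% of all genes changed and 10.6% fell). Bnip3, a mitochondrial protein that drives mitophagy (ENSMUSG00000078566, chromosome 7, 138890836 to 138909519, minus strand), was at 456.7, 744.1 and 709.2 CPM in NT and at 59.8, 247.4 and 262.0 in the knockout. It fell by 1.74 (SE 0.33, adjusted p = 0.000408). The first replicate was the lowest of both groups, and in a fit of these 2 groups alone the adjusted p was 0.103. P4ha1, a collagen prolyl hydroxylase subunit, was at 29.3, 49.4 and 42.4 CPM in NT and at 10.0, 18.5 and 28.7 in the knockout, a fall of 1.05 (SE 0.36, adjusted p = 0.0417). That call was lost, at adjusted p of 0.0953 to 0.164, without NT replicate 2 or 3 or without DOT1L replicate 1 or 2. Ddit4, an inhibitor of mTORC1 signalling, had a log2 fold change of −1.55 (SE 0.62, adjusted p = 0.0885), Ankrd37 one of −1.68 (SE 0.76, adjusted p = 0.13), and Vegfa, the angiogenic growth factor, one of −0.42 (SE 0.36, adjusted p = 0.464). Bnip3l, the paralog of Bnip3, was at −0.03 (SE 0.17). Mxi1, an antagonist of Myc, stood on the other side at 0.75 (SE 0.33, adjusted p = 0.111). Ddit4, Ankrd37 and Mxi1 passed the threshold under 4, 3 and 5 of 13 alternatives, a replicate block among them.

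None of the 33 tested members changed against NT in the MLLT10 knockout, where 0.463% of all genes did. DESeq2 called 0. At an unadjusted p under 0.05 there were 4 members, but the share of all genes at that threshold is not given here. The nearest was Pfkm, at 17.5 to 30.4 CPM over 6 libraries with a log2 fold change of −0.46 (SE 0.19, adjusted p = 0.412). Hif1a was at −0.32 (SE 0.14, adjusted p = 0.471).

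In the MLLT1-labelled libraries 0 members changed against NT, where 2.61% of all genes did. DESeq2 called 1 member. At an unadjusted p under 0.05 there were 4, again with no share of all genes given at that threshold. The log2 fold change was below 0 for 27 of 33, with a median of −0.16 beside 0.0063 over all genes. This comparison shares its NT libraries with that of the DOT1L knockout. Egln3 was at 297.4, 349.0 and 442.2 CPM as the lowest, median and highest of 6 libraries, a log2 fold change of −0.46 (SE 0.14, adjusted p = 0.068). It was the member that DESeq2 called, at an adjusted p of 0.0199. Pdk1 followed at −0.45 (SE 0.15, adjusted p = 0.138), with 156.7, 165.8 and 214.2 CPM, and Aldoc at −0.74 (SE 0.27, adjusted p = 0.16). Without the first NT library, Egln3 and Pdk1 had adjusted p of 0.0339 and 0.0428, and without the second MLLT1 G1 library Egln3 had 0.0492.

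In the MLLT6 knockout 0 members changed, as did 0% of all genes, with 3 members and 715 genes at an unadjusted p under 0.05 and 0 by DESeq2. Egln3 was at 407.0 to 490.5 CPM and Pfkfb4 at 13.8 to 18.03, both overlapping NT. The nearest to the threshold, all at an adjusted p of 0.711, were Gapdh (1.46), Pfkfb3 (−0.35), Pkm (0.36) and Pfkl (0.37). Between the 2 guides of a gene, 0 members differed for MLLT10 (0% of all genes), for MLLT1 (0%) and for MLLT6 (0%). DESeq2 called 0 members in each. The members at an unadjusted p under 0.05 were 0, 0 and 1, the last being Hk2, with no share of all genes given at that threshold.

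The DOT1L knockout was also compared directly with the partner knockouts, which tests the difference between them. Against the MLLT10 knockout, 15 members differed, 3 higher and 12 lower, where 23.2% of all genes did (12.5% higher, 10.7% lower). Against the MLLT1-labelled libraries, 11 differed, 2 higher and 9 lower, where 19.5% of all genes did (11% higher, 8.45% lower). Against the MLLT6 knockout, 14 differed, 2 higher and 12 lower, where 29% of all genes did (15.1% higher, 13.9% lower). Of the 12 members that changed against NT, 10 differed in all 3 of these comparisons, which share the DOT1L libraries. The matching share over all genes is not given here, so this count is not read as particular to the members. The exceptions among the 12 were Pfkl and P4ha1. Pfkl missed the threshold against the MLLT1-labelled libraries (−0.48, adjusted p = 0.0798), and P4ha1 missed it in all 3. Without the first DOT1L library the difference from the MLLT1-labelled libraries was lost for Tpi1, Ldha and Aldoc as well (adjusted p = 0.191, 0.189 and 0.123), and that from the MLLT10 knockout for Ldha (0.0553).

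Egln3 was lower than in the MLLT10, MLLT1-labelled and MLLT6 libraries by 1.57, 1.37 and 1.72 on the log2 scale (adjusted p 1.25e-08, 1.16e-07 and 2.09e-09). Pfkfb4 was higher by 1.97, 2.01 and 2.11 (adjusted p 8.38e-09, 7.2e-09 and 2.5e-09). Mxi1 differed in all 3, higher by 0.86, 0.81 and 1.16 (adjusted p 0.0261, 0.0405 and 0.00249), although not against NT: NT spanned 60.6 to 151.2 CPM, the DOT1L knockout 149.4 to 194.1. Against the MLLT10 and MLLT1-labelled libraries its call was lost without any of 5 and 6 single libraries, at adjusted p up to 0.103 and 0.148. Pkm, short of the threshold against NT, was lower than in the MLLT10 knockout by 0.63 (adjusted p = 0.00891, or 0.0925 without the first DOT1L library) and than in the MLLT6 knockout by 0.86 (adjusted p = 0.000548). Against the MLLT6 knockout Aldoa was lower as well, by 0.76 (adjusted p = 0.00273). Vhl, the ubiquitin ligase component, was higher than in the MLLT10 knockout by 0.52 (adjusted p = 0.0255, and up to 0.135 without any of 4 single libraries). Egln1 was lower than in that knockout by 0.80 (adjusted p = 0.0491), a call lost without any of 8 of the 9 libraries compared, at up to 0.237.

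Families of paralogs were set side by side as shares of counts per kilobase of annotated exon, as a description with no test. The length scale is uncertain, because over 10117 genes the mean CPM and the longest transcript's length had a Spearman correlation of −0.081 and the kit is unknown here, so shares of counts with no length are given too. Egln3 made up 74.0% ± 0.3 (SD, n = 3) of the prolyl hydroxylase family in NT and 50.7% ± 2.06 (SD, n = 3) in the DOT1L knockout. As shares of counts it went from 69.2% to 46.1%. Egln2, the hydroxylase that hypoxia does not induce, took 7.33% ± 2.77 in NT and 24.1% ± 5.96 in the knockout, or 7.22% and 23.1% of counts. By library its shares per kilobase were 10.2%, 7.05% and 4.71% in NT against 30.9%, 21.9% and 19.6% in the knockout. These shares do not overlap.

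Pfkfb4 took 8.86% ± 1.1 of its family in NT and 32.7% ± 2.68 in the DOT1L knockout, or 5.9% and 23.8% of counts. Pdk1 took 36.7% ± 4.26 in NT and 19.8% ± 4.44 in the knockout, or 63.6% and 42.6% of counts, so which of Pdk1 and Pdk3 is the larger depends on the length scale. Bnip3 took 82.5% ± 2.55 of the Bnip3 and Bnip3l pair in NT and 55.7% ± 12.5 in the knockout, with its first knockout library at 41.3%. As shares of counts Bnip3 went from 73.5% to 43.0%, so which of the pair is the larger in the knockout depends on the length scale. The phosphofructokinase shares stayed closer, with Pfkl at 60.6% ± 5.23 and 64.7% ± 5.23 and Pfkm at 8.93% ± 3.45 and 5.58% ± 3.16. As shares of counts Pfkl was at 48.1% and 51.0%, Pfkp at 48.3% and 46.8%, and Pfkm at 3.56% and 2.20%. The larger of Pfkl and Pfkp thus depends on the length scale too. In the partner knockouts Egln3 took 69.9% (MLLT10), 68.4% (MLLT1-labelled) and 72.9% (MLLT6), and Pfkfb4 13.6%, 12.7% and 12.9%. As shares of counts these were 64.8%, 63.7% and 68.1% for Egln3, and 9.24%, 8.58% and 8.74% for Pfkfb4.

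**Figure D3:**
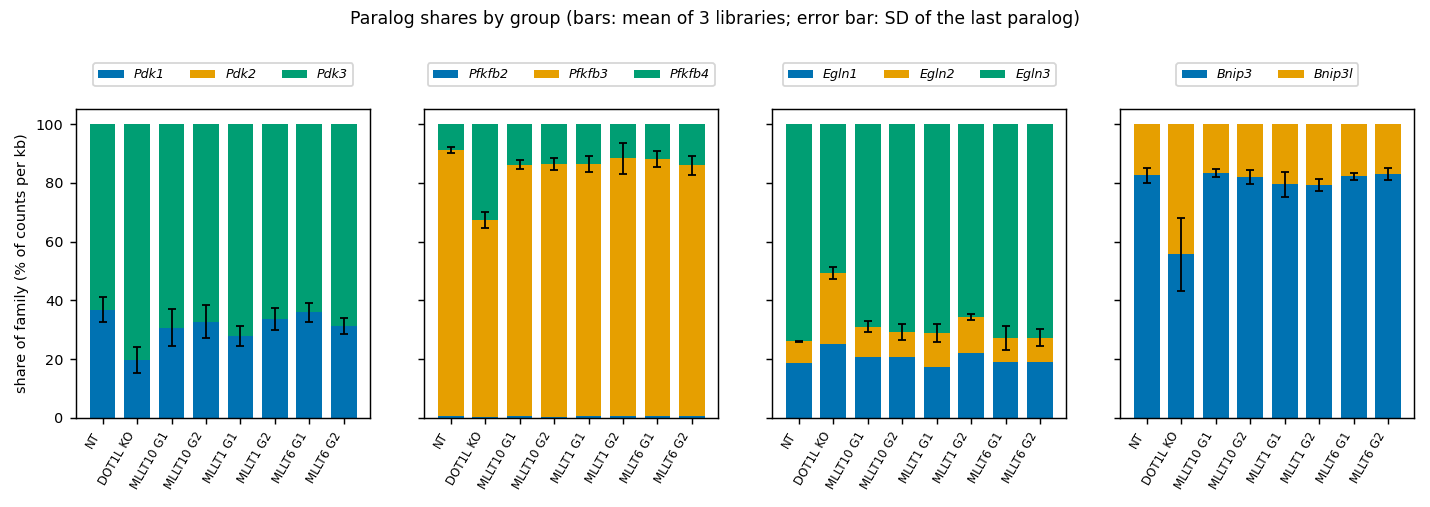
Stacked mean share of each paralog (y axis, percent of counts per kilobase in its family) by group (x axis, 3 libraries each) for 4 families. Error bars are the SD of the uppermost paralog; Egln3 is 74.0% in NT and 50.7% in the DOT1L knockout, Pfkfb4 8.86% and 32.7%.

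Several hypoxia targets also differed with the replicate number. In every group the libraries carry replicate numbers 1 to 3, and the labels do not say what a number marks, so what it stands for was not tested. In a fit with group and number, 8 members differed between numbers, where 9.32% of all genes did. They were 5 of the 7 hypoxia targets, 2 of the 5 oxygen sensing genes, 1 of the 16 enzymes and 0 of the 5 flux regulators. Of these 8, 2 also changed in the DOT1L knockout (Bnip3 and P4ha1). That is 25% of the members that differed between numbers, near the 21.7% of all genes that changed in the knockout. It is 16.7% of the members that changed in the knockout, beside the 9.32% of all genes that differed between numbers.

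Ankrd37, an ankyrin repeat gene induced by hypoxia, had the smallest adjusted p (7.62e-07). In replicates 1, 2 and 3 it was at 9.07, 44.4 and 40.4 CPM in NT and at 2.23, 12.4 and 13.7 in the DOT1L knockout. For MLLT10 it was at 7.70, 22.8 and 29.8 with G1 and at 8.77, 21.7 and 24.6 with G2. For the MLLT1-labelled libraries it was at 5.72, 17.2 and 21.9 and at 6.32, 13.8 and 28.01, and for MLLT6 at 11.3, 34.3 and 27.4 and at 9.20, 33.97 and 26.7. The first replicate was the lowest in all 8 groups, and number 2 exceeded number 1 by 1.67 and number 3 by 1.83 on the log2 scale.

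Vegfa was at 41.0 to 90.5 CPM (median 75.3) in the 8 first replicates, at 96.7 to 147.7 (median 128.9) in the second and at 111.5 to 145.2 (median 125.0) in the third. The first replicates did not overlap the others, and the adjusted p was 8.52e-05. Ddit4 was at 83.7 to 298.0 CPM (median 172.1), 123.2 to 594.2 (median 480.9) and 165.9 to 556.0 (median 390.9; adjusted p = 0.0191), with the first replicate lowest in 7 of 8 groups. P4ha1 was at 10.0 to 32.7 CPM (median 21.8), 18.5 to 49.4 (median 33.6) and 26.2 to 42.4 (median 36.4; adjusted p = 0.0107). Bnip3 was lowest in the first replicate in all 8 groups, with medians of 467.2, 613.6 and 658.0 CPM over ranges of 59.8 to 607.8, 247.4 to 771.1 and 262.0 to 712.5 (adjusted p = 0.0382).

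Among the oxygen sensors, Egln1 was at 53.9 to 143.5 CPM (median 124.5) in the first replicates, at 110.9 to 189.1 (median 152.6) in the second and at 117.3 to 214.2 (median 193.8) in the third (adjusted p = 0.00239). Egln2 went the other way, at 58.1 to 81.0 CPM (median 63.5), 48.7 to 75.01 (median 58.2) and 35.5 to 57.3 (median 49.9; adjusted p = 0.0098). It was the single member of the 8 that was higher in the first replicates, where it was the highest of its group in 6 of 8 groups. Hexokinase Hk3, the myeloid hexokinase, was at 30.9 to 93.6 CPM (median 64.0), 66.2 to 125.8 (median 86.8) and 54.1 to 152.2 (median 96.8; adjusted p = 0.0387). The calls for Ankrd37, Vegfa, Egln1, Egln2, P4ha1 and Ddit4 held in all 28 alternatives, and those for Bnip3 and Hk3 in 12 of 28. Egln3, Hif1a, Pfkm and Pfkfb4 changed in the DOT1L knockout and did not pass for the replicate number: the adjusted p was 0.346 for Egln3, 0.602 for Hif1a, 0.936 for Pfkm and 0.0627 for Pfkfb4.

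**Figure D4:**
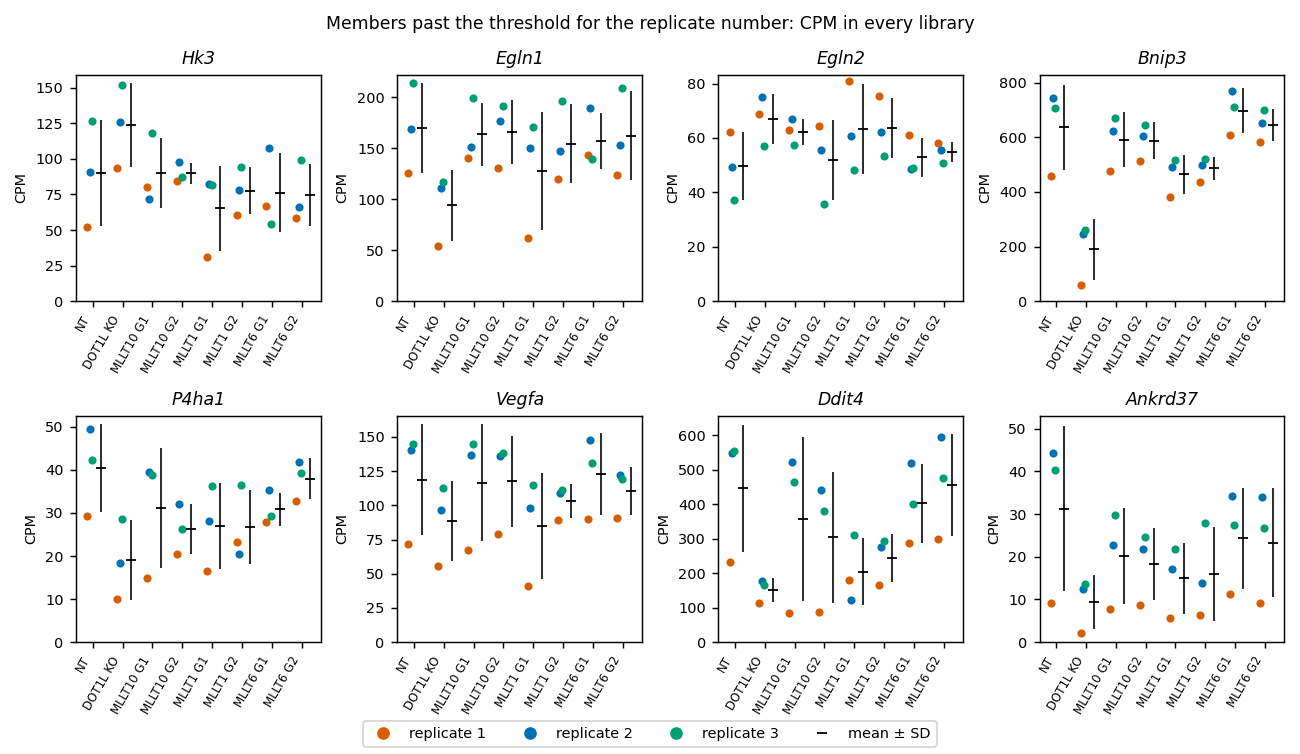
CPM (y axis, linear from 0) in each library by group (x axis) for the 8 genes that differed between replicate numbers; points are libraries coloured by number, dashes with bars the mean and SD of 3. The first replicate of Ankrd37, at 2.23 to 11.3, is the lowest of its group in all 8 groups, and Egln2 runs the other way.

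After group means were removed, the members' log2 CPM deviations were compared over the 24 libraries, as a description. Differences between replicate numbers were not removed, and the library totals differed. The r values among hypoxia targets therefore include the differences between numbers, for which 5 of the 7 were called. The 21 pairs of hypoxia targets had a median Pearson r of 0.72, the 120 pairs of enzymes 0.15 and all 528 pairs 0.14. Vegfa and Ankrd37 had r = 0.92 (Spearman rho 0.79), P4ha1 and Ankrd37 0.85 (0.88), and Egln1 and Vegfa 0.86 (0.78). Egln1 and Egln2 ran in opposite directions at −0.71 (−0.73). Pdk1 and Bnip3, both targets that restrain mitochondria, had r = 0.86 (0.81). Hif1a mRNA ran both ways with the 7 hypoxia targets, with r from −0.30 for Ddit4, through 0.02 for Ankrd37 and 0.14 for Bnip3, to 0.58 for Mxi1. With the enzymes its r ran from −0.67 for Pgam1 to 0.62 for Pgk1, and it was 0.43 with Pdk1 and 0.36 with Egln1. Among the enzymes, Aldoa and Pkm had r = 0.87 (0.88), and Pfkl and Pfkp 0.82 (0.79). Hk3 paired most closely with Mxi1, at 0.93 (0.92).

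**Figure D5:**
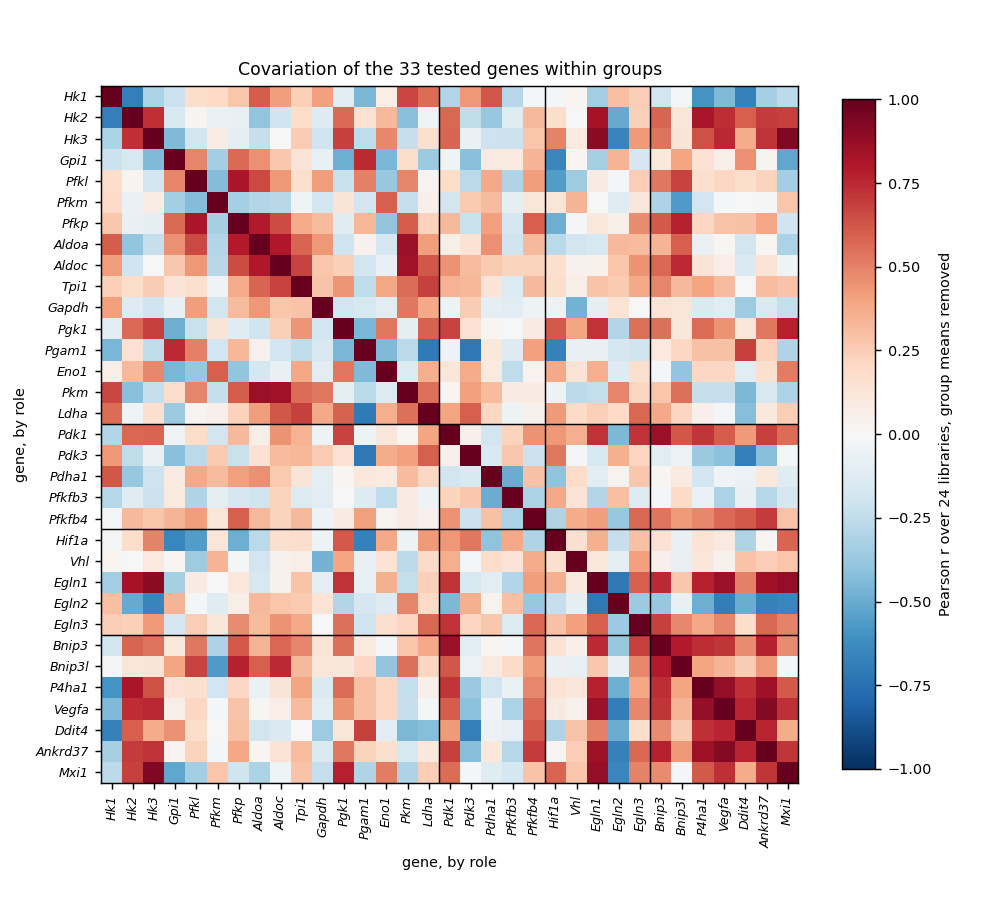
Pearson r (colour, −1 to 1) between the log2 CPM deviations of 33 genes from their group means over 24 libraries; both axes list the genes by role, with lines between roles. The lower right block of hypoxia targets has a median of 0.72, the upper left block of enzymes 0.15.

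Other genes of the same pathways were counted on lists made from their known roles, chosen with earlier results of these data known. Of all genes tested, 21.7% changed in the DOT1L knockout against NT, 10.6% lower and 11.1% higher. Of 6 tested glucose and lactate transport genes, 3 changed in the DOT1L knockout (50%). The transporter Slc2a1 was at 105.9, 135.7 and 117.4 CPM in NT and at 40.9, 79.6 and 75.6 in the knockout, and fell by 0.87 (SE 0.24, adjusted p = 0.0104, or 0.0671 without the first DOT1L library). Bsg, the chaperone of lactate transporters, fell by 1.21 (SE 0.25, adjusted p = 0.000913). The transporter Slc2a3 rose by 1.27 (SE 0.21, adjusted p = 6.74e-05) in the DOT1L knockout and fell by 1.32 (SE 0.18, adjusted p = 8.22e-05) in the MLLT1-labelled libraries, opposite directions against the same NT libraries. Of 7 tested further glycolysis and gluconeogenesis genes, 4 changed (57.1%), 2 in each direction. Adpgk, an ADP-dependent glucokinase, was at 89.4, 72.6 and 98.8 CPM in NT and at 774.7, 1061.1 and 1180.1 in the knockout, a rise of 3.53 (SE 0.27, adjusted p = 5.64e-10). Pgm1, phosphoglucomutase, fell by 0.98 (SE 0.19, adjusted p = 0.000474). Tigar, a fructose bisphosphatase, and Eno3, the muscle enolase, had log2 fold changes of 0.56 (adjusted p = 0.021) and −1.70 (adjusted p = 0.0428), and each call was lost without any of 4 single libraries, at adjusted p up to 0.113 and 0.216.

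Genes of the pentose phosphate and glycogen routes changed for 7 of 13 tested (53.8%), 6 of them higher, with a list median of 0.42. Over all genes 21.7% changed and 11.1% were higher, with a median of 0.0067. Pgd, the second dehydrogenase of the pentose phosphate route, was at 288.1, 224.9 and 200.2 CPM in NT and at 803.7, 912.2 and 859.1 in the DOT1L knockout, a rise of 1.85 (SE 0.17, adjusted p = 6.21e-09). G6pdx, which opens the route, rose by 1.67 (SE 0.21, adjusted p = 1.11e-06), and the glycogen-degrading enzyme Pygl by 0.94 (SE 0.19, adjusted p = 0.000674). Of 9 tested genes for pyruvate entry into mitochondria, 2 changed (22.2%, near the 21.7% of all genes): the pyruvate carrier gene Mpc2 rose by 0.98 (SE 0.15, adjusted p = 3e-05) and Pck2, which makes phosphoenolpyruvate in mitochondria, fell by 0.51 (SE 0.15, adjusted p = 0.0119, and up to 0.0902 without any of 3 single libraries). In the MLLT1-labelled libraries Pgd had a log2 fold change of 0.52 at an adjusted p of 0.0488, a call lost without any of 8 single libraries at adjusted p up to 0.318.

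Of 13 tested further components of the hypoxia pathway, 3 changed in the DOT1L knockout (23.1%, near the 21.7% of all genes). Cited2, which competes with the transcription factor for its coactivators, rose by 1.51 (SE 0.41, adjusted p = 0.0111), and the coactivator gene Ep300 rose by 0.59 (SE 0.19, adjusted p = 0.029). Hsp90ab1, a chaperone, fell by 0.47 (SE 0.16, adjusted p = 0.0403). These calls were lost without any of 2, 5 and 3 single libraries, at adjusted p up to 0.0598, 0.106 and 0.140. Of 23 tested other hypoxia targets 9 changed (39.1%), 8 of them lower, with a list median of −0.49. Of all genes 10.6% were lower. Car9, a carbonic anhydrase, was at 32.6, 94.1 and 95.6 CPM in NT and at 20.4, 27.7 and 20.7 in the knockout, and fell by 1.70 (SE 0.34, adjusted p = 0.000716). In the MLLT1-labelled libraries Car9 was at −1.01 (adjusted p = 0.0491, and up to 0.344 without any of 7 single libraries). Higd1a and Stc2 fell by 0.91 and 0.83 (adjusted p 4.96e-05 and 0.000922). For the replicate number, 9 of these 23 genes differed (39.1%, where 9.32% of all genes did). All were higher in the second replicates than in the first, with Nfil3 (adjusted p = 2.47e-05) and Bhlhe40 (0.000149) first.

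Several members are hard to count because their exons recur elsewhere in the genome annotation. The share of 50-base stretches also found in other annotated genes was 53.9% for Pgk1, 47.2% for Bnip3, 36.2% for Pgam1, 25.99% for Eno1, 25.8% for Pkm and 25.1% for Gapdh, whose stretches recur in 213 pseudogenes. Over the last 500 annotated bases alone it was 90.5% for Gapdh, 75.2% for Eno1, 74.1% for Bnip3, 7.32% for Pgk1 and 0% for Pgam1 and Pkm. Gapdh was at 2.05 ± 0.763 CPM (SD, n = 3) in NT and Eno1 at 12.2 ± 4.71, so their levels are uncertain and no order among the enzymes is read from them. Egln3, Egln1, Egln2, Pdk1, Pfkfb4, Aldoc, P4ha1 and Ddit4 share none. The 4 members that were not tested were Eno2 and Pdk2, with 0 counts in all 24 libraries, Ldhb, with 7 counts in the DOT1L knockout and 0 elsewhere, and Pfkfb2, at 0 to 1.94 CPM.

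Promoters of 36 members were found in the RefSeq table. ACGTG or GCGTG on either strand, counted with overlaps, was present in 27 of 36 (75%), against 43.8% of all 32851 promoters of that length and 63.2% of the 10273 promoters of tested genes. It was present in 11 of the 12 members that changed in the DOT1L knockout (91.7%), Tpi1 being the one without, and in 16 of the other 24 (66.7%). The palindrome CACGTG was in 6 of 36 members (16.7%), Hif1a, Ldha and Bnip3 among them, against 7.15% of all promoters. Its share among the promoters of tested genes alone, the closer background, is not given here. The window holds letters, not measured binding.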

How the data were processed

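The authors deposited a table of raw read counts per Ensembl gene for 24 libraries; per the submitters' processing notes, bcl2fastq, HISAT2, HTSeq, DESeq2 and mm10 were used, and the versions, annotation, strand setting and kit were not given in the sources used here. These deposited counts were tested with edgeR 4.0.16 (R 4.3.3): TMM scaling, filterByExpr, and quasi-likelihood fits with 1 mean per group of 3, all 24 libraries sharing the estimate of the spread, Benjamini-Hochberg adjustment over 10578 genes and a threshold of 0.05. The replicate number was tested with an F test in an additive fit with group. Knockouts with 2 guides were the mean of both guides. Precision is low for genes such as Gapdh, with 3 to 8 counts per NT library and an SE of 0.67 for the DOT1L knockout against NT. Ankrd37 had a larger SE there, 0.76. Scripts were tested on simulated data. Symbols came from GENCODE M21 (42548 of 43629 identifiers). Replicate libraries differed by more than sampling noise (chi-square per gene 4.76 to 34.3). The members and all gene lists were chosen with earlier results of these data known. Values in every library are given for members that changed against NT, for the highest member per kilobase of each role, and for those that differed between replicate numbers; other genes were named by adjusted p, up to 4 per list for the DOT1L knockout and 2 for other groups, and some that this rule names are not reported here. Alternatives were no filter, DESeq2 size factors, the DESeq2 1.42.0 test, a replicate block, the compared groups alone, leaving out each library, and, chosen after seeing the data, leaving out the libraries farthest from their groups.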

Additional observations from a re-analysis of the deposited data

Results flagged for a closer look

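In 63 sets of 6 libraries (a listed gene in both guides of a knockout), 6 held a library whose gap to the nearest other exceeded Dixon's critical value; chance alone flags about 1 set in 20. Vegfa was at 41.0 CPM in the first MLLT1 G1 library against 89.1 to 114.9 in the other 5, in a library that stood apart over all genes. Pfkl was at 780.7 CPM in the third MLLT6 G1 library against 481.7 to 579.2, in the other library that stood apart. Egln2 was at 35.5 CPM in the third MLLT10 G2 library against 55.7 to 66.8. Gapdh was at 13.4 CPM in the first MLLT10 G1 library against 1.62 to 5.43. Pfkfb4 was at 9.93 CPM in the first MLLT1 G2 library against 16.3 to 18.8, and Pfkm was at 27.5 CPM in the second MLLT1 G1 library against 21.7 to 23.5.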

How the results depend on the processing

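The number of members that changed in the DOT1L knockout against NT was 12 to 17 under every alternative that kept all libraries and 8 to 12 when 1 NT or DOT1L library was left out. It was 17 with the replicate block, which added Egln1, Egln2, Ddit4, Ankrd37 and Mxi1, and 23 with the block but leaving out the libraries farthest from their groups, a setting in which the DOT1L knockout differed from the MLLT10 and MLLT6 knockouts in 25 and 23 members. Against the MLLT1-labelled libraries the count was 7 to 13 with 1 library left out, 7 being without the first DOT1L library. MLLT1-labelled libraries against NT gave 3 without the filter, 2 with the block, 1 by DESeq2, 3 with the block and those libraries left out, and 0 to 2 with 1 library left out (2 without the first NT library, 1 without the second MLLT1 G1 library). For the replicate number the range was 6 to 11. No named gene reversed. Deviations of same-numbered libraries correlated above 0.1 for every number in 6 of 28 pairs of groups. For NT with DOT1L the r was 0.24, 0.0596 and 0.133 for numbers 1, 2 and 3. The labels state no pairing, and the main fit holds no replicate block. As 9.32% of all genes differed between numbers, such differences remain in the spread of the main fit. The cause of the changes in the members was not tested. Low counts and shared sequence both bear on Gapdh and Eno1, and their parts were not separated.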
